A study of Homo sapiens with 29 samples.

Results

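Aminoacyl-tRNA synthetases are the enzymes that join each amino acid to its transfer RNA. The genes described here are 35 human synthetases, 19 that encode cytosolic enzymes and 16 that encode mitochondrial enzymes, of 63677 features in each of 2 count tables. They were chosen by symbol alone, with older symbols without the final 1 taken as the same gene, and every symbol matched a single feature on a chromosome. RNA sequencing libraries came from 2 human prostate cancer cell lines, C4-2, a subline of LNCaP that grows after castration, and 22Rv1, which came from a xenograft that had relapsed, both grown in medium with hormones. In 22Rv1 there were 2 libraries with CC-115 and 3 Control libraries. In C4-2 there were 8 groups of 3 libraries: CC-115, NU7441, CC-223, each of these with enzalutamide (CC-115+Enza, NU7441+Enza and CC-223+Enza), enzalutamide alone (Enza) and Ctrl. Each agent was used at 1 µM for 24 h, per the labels. NU7441 inhibits DNA-PK, CC-223 inhibits TOR kinase, CC-115 inhibits both kinases, and enzalutamide blocks the androgen receptor. Nothing in the labels says whether replicates were separate cultures, so p-values measure the spread between these libraries, which may be technical.

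In the cytosol each synthetase serves translation of nuclear messages, and 7 of the cytosolic enzymes listed here (EPRS1, IARS1, KARS1, LARS1, MARS1, QARS1 and RARS1) sit in the multisynthetase complex, held together by scaffold proteins. EPRS1 is a single polypeptide that charges both glutamate and proline, and FARSA and FARSB are the subunits of the cytosolic phenylalanine enzyme. The mitochondrial enzymes are made from nuclear genes, imported, and used to translate the messages of the mitochondrial genome. GARS1 and KARS1 each give rise to enzymes of both compartments and are counted with the cytosolic genes. Several cytosolic synthetase genes are known targets of ATF4, the transcription factor of the amino acid response, whose translation depends in part on TOR kinase.

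Total counts were 29.58 to 44.86 M per C4-2 library and 31.61 to 44.91 M per 22Rv1 library. All 35 genes passed the filter on low counts in both lines, with 142 counts at the lowest (SARS2) and 31422 at the highest (IARS1). Counting error was not compared with the spread between libraries. Enza 1 and CC-115+Enza 1 stood apart from the other libraries of their groups, with root mean square log2 differences of 0.648 and 0.662, against 0.273 to 0.468 in the other C4-2 libraries. In 22Rv1 the values were 0.332, 0.375 and 0.525 in Control 1, 2 and 3. They were 0.598 in both CC-115 libraries, each of which has only the other to be set against. All 9 prostate epithelial markers were counted in every library of both lines. CD3E, PTPRC, CDH5 and DES reached at most 7 counts in any library, while COL1A1 had 52 to 349 over both lines and VWF 24 to 162 in C4-2. The summed fibroblast or muscle markers reached 9.01 to 12.5 CPM in 22Rv1 CC-115 libraries, against 2.25 to 4.20 in 22Rv1 Control libraries. In C4-2 they reached 5.23 to 8.32 CPM with CC-115+Enza and 4.33 to 12.5 with Enza, against 2.18 to 3.54 in Ctrl. Their part in the synthetase results was not tested.

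Promoter sequence is shown for the genes whose 250 bases before the RefSeq start hold TGATGNAA, the core shared by the C/EBP-ATF response elements through which ATF4 acts. Motifs were searched on both strands in 35116 RefSeq promoter windows (GRCh38.p14). Of the 35 genes 30 were matched to windows, 39 in all, and LARS1, VARS1, YARS1, AARS2 and VARS2 are named only. TGATGNAA lay in windows of 3 of 16 cytosolic genes and 1 of 14 mitochondrial genes. By window these were 3 of 21 and 1 of 18, against 3.14% of all windows. The windows are AARS1 (chr16:70289507-70289756, minus strand), GARS1 (chr7:30594628-30594877, plus strand), IARS1 (chr9:92293698-92293947, minus strand) and YARS2 (chr12:32755898-32756147, minus strand). They are written 5′ to 3′ on the gene's strand, with the match in capitals, and the matches begin 187, 33, 13 and 197 bases before the start in that order.
AARS1: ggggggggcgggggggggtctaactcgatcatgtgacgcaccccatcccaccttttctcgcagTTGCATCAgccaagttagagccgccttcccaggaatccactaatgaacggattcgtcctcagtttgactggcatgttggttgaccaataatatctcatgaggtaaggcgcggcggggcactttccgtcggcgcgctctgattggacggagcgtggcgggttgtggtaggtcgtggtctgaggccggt
GARS1: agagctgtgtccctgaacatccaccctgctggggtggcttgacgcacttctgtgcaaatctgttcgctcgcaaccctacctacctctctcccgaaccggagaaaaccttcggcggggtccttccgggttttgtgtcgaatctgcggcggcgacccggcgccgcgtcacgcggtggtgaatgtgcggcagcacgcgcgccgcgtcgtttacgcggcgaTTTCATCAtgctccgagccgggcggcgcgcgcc
IARS1: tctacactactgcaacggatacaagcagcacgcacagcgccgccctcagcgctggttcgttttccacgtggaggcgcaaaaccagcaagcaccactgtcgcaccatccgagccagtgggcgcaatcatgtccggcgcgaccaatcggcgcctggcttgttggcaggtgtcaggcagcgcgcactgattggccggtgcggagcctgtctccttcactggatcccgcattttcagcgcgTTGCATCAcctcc
YARS2: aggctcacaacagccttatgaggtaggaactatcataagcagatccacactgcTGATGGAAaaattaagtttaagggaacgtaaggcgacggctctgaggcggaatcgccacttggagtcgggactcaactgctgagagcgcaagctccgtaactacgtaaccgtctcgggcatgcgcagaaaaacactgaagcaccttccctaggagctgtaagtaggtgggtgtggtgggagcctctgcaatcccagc
The ETS core CCGGAAG was the most frequent of the 4 motifs searched among these genes, in 9 of 16 cytosolic and 7 of 14 mitochondrial genes. By window these were 10 of 21 and 8 of 18, against 8.52% of all windows. The NRF1 motif lay in 2 of 16 cytosolic and 2 of 14 mitochondrial genes (3 of 21 and 2 of 18 windows, 5.07% of all windows). The E-box CACGTG lay in 1 of 16 and 2 of 14 genes (1 of 21 and 2 of 18 windows, 6.34% of all windows). A match is a string of letters and does not show that a factor binds.

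Levels between genes are compared as TMM-scaled CPM per kilobase of exon (CPM per kb, mean ± SD, n = 3). The length is the exon length deposited with the counts, which may exceed that of a gene's message. It was 10037 bases for CARS1 and 8436 for HARS1, for example, and the order of the genes depends on it. In untreated C4-2 cells the cytosolic genes had a median of 50.3 CPM per kb and the mitochondrial genes 13.3. NARS1 (105 ± 9.57), EPRS1 (102 ± 7.34) and IARS1 (94.7 ± 6.70) were the most abundant, and 9 of the 10 highest were cytosolic. IARS2 (70.8 ± 5.16), the mitochondrial isoleucine enzyme, was the exception and ranked between TARS1 and FARSA, while SARS2 (1.38 ± 0.052) was the lowest. Of the 34 pairs of neighbours in this order, 20 overlapped in their library ranges and 14 did not. In untreated 22Rv1 cells AARS1 (103 ± 9.36), FARSA (76.4 ± 5.69) and SARS1 (72.7 ± 0.87) led, IARS2 (52.3 ± 2.78) was again the highest mitochondrial gene, and SARS2 (2.11 ± 0.027) the lowest. There 25 of 34 neighbours overlapped. SARS2 shares 53.1% of its exon bases with other features on the same strand and VARS2 22% with GTF2H4, so their levels are uncertain.

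Of the 3 inhibitors given alone, CC-223 went with the lowest cytosolic sum. It stood at 4085 ± 103 CPM in CC-223 cells, 4728 ± 182 in NU7441 cells and 5357 ± 123 in CC-115 cells, against 5378 ± 252 in Ctrl cells (SD, n = 3 each). The mitochondrial sums were 949.5 ± 19.2, 1043 ± 27.5 and 982 ± 19.9 CPM with CC-223, NU7441 and CC-115, against 1090.3 ± 53.5 in Ctrl. The ratio of the cytosolic to the mitochondrial sum, which no scaling of a library can change, was 5.45 ± 0.06 with CC-115, 4.53 ± 0.07 with NU7441 and 4.30 ± 0.02 with CC-223, against 4.93 ± 0.03 in Ctrl. Its library ranges did not overlap Ctrl for any of the 3 compounds, and the CC-115 ratio lay above Ctrl while the other ratios lay below. The ratio was 5.58 ± 0.27 in CC-115+Enza, 5.13 ± 0.10 in NU7441+Enza and 4.66 ± 0.06 in CC-223+Enza, against 5.48 ± 0.10 in Enza. The range of CC-115+Enza overlapped that of Enza only through library 1 (5.28), and libraries 2 and 3 (5.67 and 5.78) lay above all Enza libraries (5.37 to 5.54). In 22Rv1 it was 3.72 ± 0.09 with CC-115 (n = 2), against 4.03 ± 0.04 in Control (n = 3). With GARS1 and KARS1, which serve both compartments, left out, the 22Rv1 ranges came close. They were then 3.31 to 3.49 with CC-115 and 3.51 to 3.62 in Control. In C4-2 the ratio was then 4.97 ± 0.05 with CC-115, 4.03 ± 0.06 with NU7441 and 3.85 ± 0.02 with CC-223, against 4.36 ± 0.03 in Ctrl. These sums are descriptions without a test, and genes with many counts weigh most in them.

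**Figure D1:**
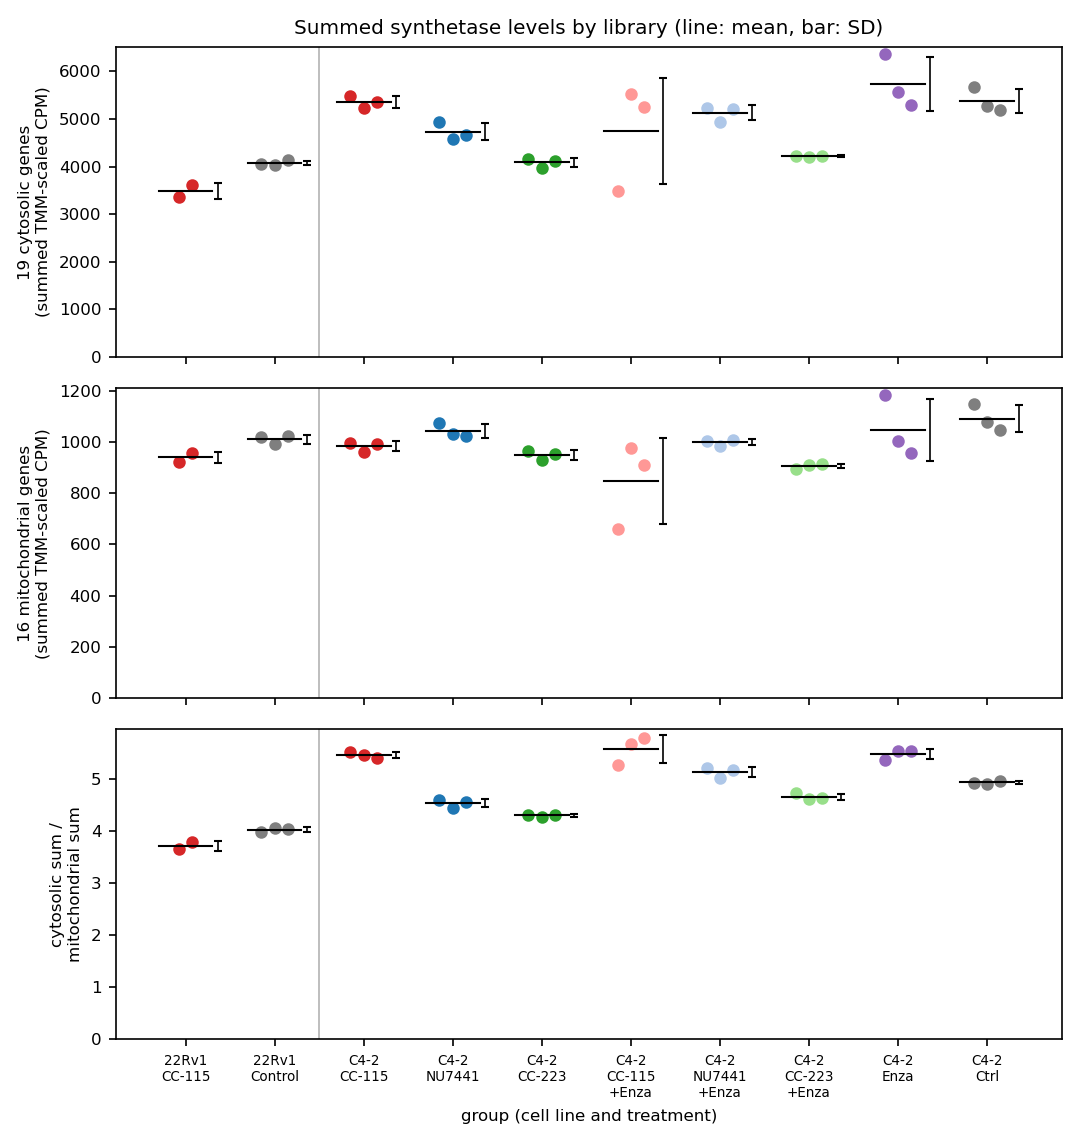
Summed TMM-scaled CPM of the 19 cytosolic genes, of the 16 mitochondrial genes, and their ratio, by group, with 1 point per library, a line at the mean and a bar of ± 1 SD. The CC-223 libraries have the lowest cytosolic sums of the single-compound C4-2 groups, and library 1 of CC-115+Enza (3479 CPM) and of Enza (6356 CPM) lie apart from the others of their groups.

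CC-223 against Ctrl asks what the TOR kinase inhibitor did alone in C4-2. Fold changes are log2 values ± SE from edgeR's quasi-likelihood test, and a gene was called at a Benjamini-Hochberg adjusted p under 0.05 over all genes tested. Of the 19 cytosolic genes 10 fell and none rose, and of the 16 mitochondrial genes 3 fell and none rose. Among all 22860 genes tested, 23.9% were called, 12.9% as rises and 10.9% as falls. Shares of all genes called are given throughout for the main fits with all libraries. They are no background to counts from other fits. The median log2 fold change was −0.42 for the cytosolic genes and −0.14 for the mitochondrial genes, against 0.07 over all genes.

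GARS1 (ENSG00000106105), the glycine enzyme on chromosome 7 at 30634297 to 30673649 in hg19, had 158, 153 and 162 CPM in the CC-223 libraries and 294, 277 and 280.1 CPM in the Ctrl libraries, a change of −0.85 ± 0.10 (edgeR adjusted p = 1.33e-06). CARS1, the cysteine enzyme, had 58.2, 56.0 and 59.1 CPM with CC-223 and 99.3, 96.8 and 96.4 in Ctrl (−0.76 ± 0.10, edgeR adjusted p = 6.16e-06). YARS1, the tyrosine enzyme, had 123, 116 and 128 CPM with CC-223 and 204, 207 and 207 in Ctrl (−0.75 ± 0.13, edgeR adjusted p = 8.64e-05). In these genes every CC-223 library was below every Ctrl library. MARS1, the methionine enzyme, had 165, 162 and 168 CPM with CC-223 and 272, 262 and 263 in Ctrl (−0.69 ± 0.11). MARS1 shares 12.4% of its exon bases with ARHGAP9 and DDIT3 on the other strand, and the strand setting of the counting is not given in the sources used here. The remaining falls were those of TARS1 (threonine, −0.56 ± 0.15), IARS1 (isoleucine, −0.52 ± 0.13), NARS1 (asparagine, −0.49 ± 0.15), FARSB (−0.48 ± 0.14), SARS1 (serine, −0.42 ± 0.15) and WARS1 (tryptophan, −0.32 ± 0.11). EPRS1 (−0.26), LARS1 (−0.02), KARS1 (−0.34) and the others were not called.

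Among the mitochondrial genes MARS2 (ENSG00000247626), the mitochondrial methionine enzyme on chromosome 2 at 198570087 to 198573113 in hg19, changed the most. It had 32.0, 31.6 and 33.2 CPM with CC-223 and 55.3, 53.8 and 52.2 CPM in Ctrl (−0.74 ± 0.10, edgeR adjusted p = 7.63e-06), with no overlap. LARS2, the leucine enzyme, had 87.7, 89.0 and 91.5 CPM with CC-223 and 120.3, 115.2 and 114 in Ctrl (−0.38 ± 0.11). CARS2, the cysteine enzyme, had 61.9, 59.9 and 62.4 CPM with CC-223 and 76.9, 74.0 and 69.9 in Ctrl (−0.26 ± 0.09). Some calls ended when 1 library was left out (edgeR adjusted p in brackets): NARS1 without Ctrl 1 (0.0718), SARS1 without Ctrl 1 or CC-223 1, 2 or 3 (0.0635 to 0.111), WARS1 without Ctrl 1 or CC-223 3 (0.0521 to 0.0534) and CARS2 without Ctrl 1 or CC-223 1 or 3 (0.058 to 0.0982). Of the 13 amino acids that are each served by 1 cytosolic and 1 mitochondrial gene in the list, both genes fell for 2 (cysteine and methionine), only the cytosolic gene for 6, only the mitochondrial gene for 1 and neither for 4. Without Enza 1 and CC-115+Enza 1, which enter here only through the shared spread, filter and scaling, 22 genes were called, and 27 in a fit of only these 6 libraries.

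NU7441 against Ctrl asks what the DNA-PK inhibitor did alone. None of the 19 cytosolic genes was called by edgeR (3 at an unadjusted p under 0.05, 0 by DESeq2), and 1 of the 16 mitochondrial genes fell. Among all genes 3.39% were called, 2.28% as rises and 1.11% as falls. The gene that fell was MARS2, with 45.0, 38.6 and 41.7 CPM in the NU7441 libraries and 55.3, 53.8 and 52.2 CPM in the Ctrl libraries (−0.36 ± 0.10, edgeR adjusted p = 0.0394). Its call ended without Ctrl 1, 2 or 3 and without NU7441 2 or 3, with adjusted p from 0.0536 to 0.347. The median change was −0.20 for the cytosolic and −0.08 for the mitochondrial genes, against 0.02 over all genes, and 18 of 19 cytosolic values were below 0. Without Enza 1 and CC-115+Enza 1, 14 cytosolic and 3 mitochondrial genes were called as falls, and 11 genes in a fit of only these 6 libraries. The 3.39% belongs to the main fit and is no background to these counts.

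CC-115 against Ctrl addresses the effect of the dual inhibitor by itself in C4-2. Here synthetases moved in both directions: 3 cytosolic genes rose and 7 fell, and 2 mitochondrial genes rose and 6 fell. In this comparison 53.6% of all genes were called, 27.6% as rises and 26% as falls. The share of synthetases called in either direction was near that background. By direction 5 of the 35 rose and 13 fell, so falls were the more frequent, unlike among all genes. The median change was −0.08 for the cytosolic genes, −0.12 for the mitochondrial genes and 0.03 over all genes.

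SARS1 (ENSG00000031698), the serine enzyme on chromosome 1 at 109756540 to 109780791 in hg19, had 437, 428 and 429.7 CPM in the CC-115 libraries and 204, 189 and 186 CPM in the Ctrl libraries, a rise of 1.16 ± 0.15 (edgeR adjusted p = 4.96e-07). AARS1, the alanine enzyme on chromosome 16 at 70286198 to 70323446, had 479, 500.0 and 492 CPM with CC-115 and 273, 296 and 315 in Ctrl (0.74 ± 0.13). CARS1 rose by 0.56 ± 0.10. These were the 3 cytosolic rises, and each group of libraries lay clear of the other. FARSB and FARSA, the subunits of the phenylalanine enzyme, both fell. FARSB had 93.0, 82.0 and 86.0 CPM with CC-115 and 157, 142 and 142 in Ctrl (−0.76 ± 0.14), and FARSA had 102, 106 and 109 CPM with CC-115 and 164, 174 and 166 in Ctrl (−0.67 ± 0.17). NARS1 (−0.66 ± 0.15), GARS1 (−0.48 ± 0.10), HARS1 (histidine, −0.45 ± 0.13), VARS1 (valine, −0.36 ± 0.13) and TARS1 (−0.35 ± 0.15) also fell. HARS1 and HARS2 share 18.3% and 17.3% of their exon bases with features on the other strand, each other among them, and reads of the pair cannot be told apart there if counting ignored strand. None of the 7 genes of the multisynthetase complex was called by edgeR (2 at an unadjusted p under 0.05, 0 by DESeq2), and their changes lay between −0.33 and 0.20. All 10 calls were among the other 12 cytosolic genes. This split was chosen after the values were seen, has no test and did not hold in every fit: 5 of the 7 genes were called without Enza 1 and CC-115+Enza 1, 3 where the CC-115 and Ctrl libraries were fitted alone, 2 with a filter of 1 CPM and 2 without Ctrl 3.

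RARS2 (ENSG00000146282), the mitochondrial arginine enzyme on chromosome 6 at 88224096 to 88299721, had 34.2, 28.9 and 31.2 CPM in the CC-115 libraries and 14.3, 13.3 and 13.0 CPM in the Ctrl libraries, a rise of 1.22 ± 0.15 (edgeR adjusted p = 9.3e-08). Its cytosolic partner RARS1 was not called (−0.31 ± 0.14). SARS2 rose by 0.37 ± 0.13. MARS2 had 24.5, 24.2 and 24.3 CPM with CC-115 and 55.3, 53.8 and 52.2 in Ctrl (−1.14 ± 0.10, edgeR adjusted p = 4.36e-10). This was the largest fall of any synthetase with CC-115 in C4-2, and the cytosolic partner MARS1 stood at −0.08 ± 0.10, not called. PARS2, the proline enzyme, had 7.78, 9.61 and 8.67 CPM with CC-115 and 15.1, 14.6 and 14.0 in Ctrl (−0.74 ± 0.12). YARS2, the tyrosine enzyme whose promoter window is shown above, had 43.3, 40.5 and 40.9 CPM with CC-115 and 70.8, 64.7 and 61.1 in Ctrl (−0.66 ± 0.11). LARS2 (−0.51 ± 0.11), TARS2 (−0.42 ± 0.13) and CARS2 (−0.35 ± 0.09) also fell. For 1 of the 13 amino acids, cysteine, the partners were called in opposite directions, CARS1 up and CARS2 down. Both moved the same way for 2, serine (rises) and threonine (falls). The calls that ended when 1 library was left out (edgeR adjusted p in brackets) were TARS1 without Ctrl 1 or CC-115 1, 2 or 3 (0.0786 to 0.216), VARS1 without CC-115 1, 2 or 3 (0.0672 to 0.116), SARS2 without Ctrl 1 or 3 or CC-115 3 (0.0534 to 0.0971) and TARS2 without CC-115 1 (0.0536). With DESeq2's size factors the same 18 genes were called in the same directions, and 30 genes were called without Enza 1 and CC-115+Enza 1, which enter only through the shared spread, filter and scaling.

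**Figure D2:**
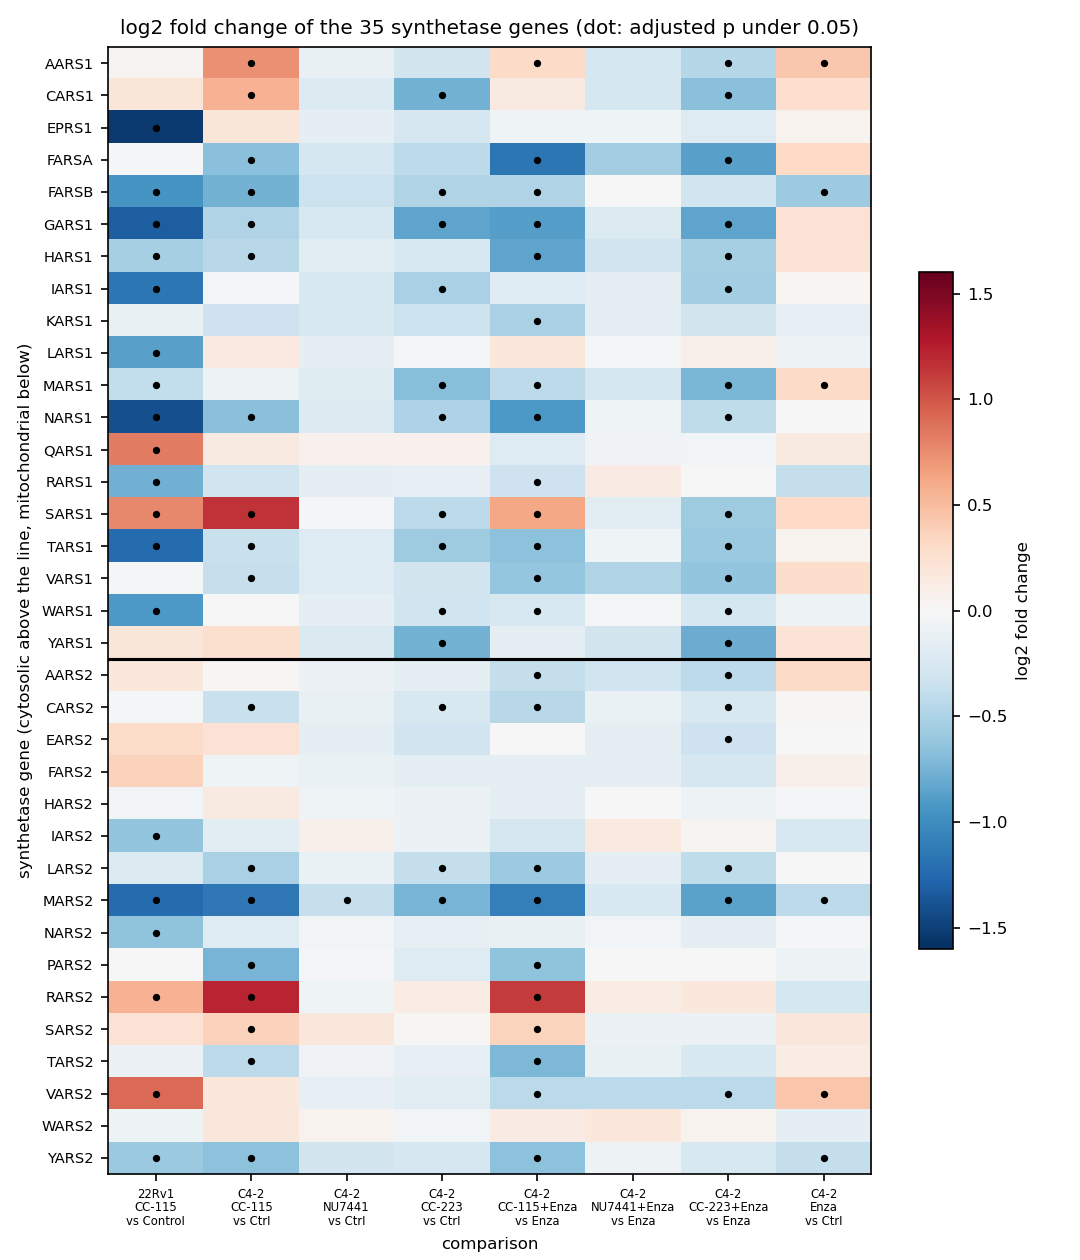
Log2 fold change of the 35 synthetase genes (rows, cytosolic above the line) in 8 comparisons (columns), with a dot where the adjusted p was under 0.05. All calls in the CC-223 column are falls, the CC-115 columns hold calls in both directions, and MARS2 is called in all columns but NU7441+Enza against Enza.

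The 3 inhibitors were given at the same dose and time, so they were compared with each other in all 3 pairs, with p-values adjusted over all genes of a pair. How far each compound inhibited its kinases at this dose is not part of these data. For CC-115 against CC-223, 9 cytosolic genes were higher with CC-115 and none lower, while 3 mitochondrial genes were higher and 3 lower, where 43.1% of all genes were called, 20.5% higher and 22.7% lower with CC-115. SARS1 had 437, 428 and 429.7 CPM with CC-115 and 145, 142 and 145 with CC-223 (1.58 ± 0.16). CARS1 (1.32 ± 0.10), AARS1 (1.03 ± 0.13), YARS1 (1.01 ± 0.13) and RARS2 (1.10 ± 0.15) were also higher with CC-115. The remaining genes higher with CC-115 were MARS1, IARS1, EPRS1, GARS1, WARS1, EARS2 and SARS2, at 0.32 to 0.60. PARS2 (−0.54 ± 0.12), MARS2 (−0.41 ± 0.10) and YARS2 (−0.39 ± 0.11) were lower with CC-115. For CC-115 against NU7441, 6 cytosolic genes were higher and 2 lower, and 2 mitochondrial genes were higher and 6 lower, where 49% of all genes were called, 24.5% in each direction. RARS2 (1.29 ± 0.15), SARS1 (1.19 ± 0.16) and AARS1 (0.85 ± 0.13) led the higher genes, and MARS2 (−0.78 ± 0.10) and PARS2 (−0.72 ± 0.12) the lower ones. For NU7441 against CC-223, 4 cytosolic genes (GARS1 at 0.59 ± 0.10, CARS1, YARS1 and MARS1) and MARS2 were higher with NU7441 and none was lower, where 7.31% of all genes were called, 3.2% higher and 4.12% lower with NU7441. The calls that ended when 1 library was left out were SARS2 without CC-115 3 or CC-223 1 (0.0593 to 0.0814) and YARS2 without CC-115 2 or 3 or CC-223 1 or 3 (0.0571 to 0.068) for CC-115 against CC-223, MARS2 without NU7441 1 or 3 or CC-223 1, 2 or 3 (0.0514 to 0.0796) for NU7441 against CC-223, and EPRS1 without CC-115 1 (0.0559), FARSB without NU7441 3 or CC-115 2 or 3 (0.068 to 0.0943), LARS1 without NU7441 1, 2 or 3 or CC-115 1 (0.0529 to 0.0736), NARS1 without NU7441 2 or 3 or CC-115 1, 2 or 3 (0.0522 to 0.105), CARS2 without NU7441 1, 2 or 3 or CC-115 1, 2 or 3 (0.0822 to 0.246), TARS2 without NU7441 1, 2 or 3 or CC-115 1, 2 or 3 (0.0618 to 0.153) and YARS2 without CC-115 2 or 3 (0.0616 to 0.0672) for CC-115 against NU7441. A gene that missed the threshold in a pair is not shown to respond alike. Without Enza 1 and CC-115+Enza 1, 11 cytosolic genes were higher and 5 lower for CC-115 against CC-223 (12 and 5 with these 6 libraries fitted alone). For CC-115 against NU7441 they were then 9 and 8, and 14 genes in all were called for NU7441 against CC-223.

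Enza against Ctrl asks what the antiandrogen did alone. Among the cytosolic genes 2 rose and 1 fell, and among the mitochondrial genes 1 rose and 2 fell, where 16.1% of all genes were called, 9.35% as rises and 6.75% as falls. AARS1 had 491, 351 and 354 CPM in the Enza libraries and 273, 296 and 315 CPM in the Ctrl libraries (0.44 ± 0.13, edgeR adjusted p = 0.0193). MARS1 (0.31 ± 0.10) and VARS2 (mitochondrial valine, 0.45 ± 0.15) also rose. Library 1 was the highest of the Enza group in each of these, and without it AARS1 stood at 0.22 (adjusted p = 0.277), MARS1 at 0.16 (0.36) and VARS2 at 0.11 (0.61), all by edgeR and none called. FARSB had 71.3, 113 and 109 CPM with Enza and 157, 142 and 142 in Ctrl (−0.59 ± 0.14), and MARS2 (−0.42 ± 0.10) and YARS2 (−0.38 ± 0.11) fell too. Those 3 falls were the only calls without Enza 1, whereas without Enza 1 and CC-115+Enza 1 together 4 cytosolic genes rose (AARS1 and MARS1 among them), 3 cytosolic and 5 mitochondrial genes fell, and VARS2 was not called. Other single libraries also ended calls, which over all left-out libraries were AARS1 without Ctrl 1 or 2 or Enza 1 (0.0717 to 0.277), MARS1 without Ctrl 1, 2 or 3 or Enza 1 or 2 (0.0515 to 0.36), VARS2 without Ctrl 1, 2 or 3 or Enza 1 (0.119 to 0.61) and YARS2 without Ctrl 1 (0.0934). In a fit of only these 6 libraries edgeR called 0 synthetases, while with all C4-2 libraries 13 had an unadjusted p under 0.05 and DESeq2 called 6.

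With enzalutamide present, cytosolic genes again fell with CC-223. For CC-223+Enza against Enza, 13 cytosolic and 6 mitochondrial genes fell and none rose, with medians of −0.53 and −0.25 (−0.37 and −0.08 without Enza 1), where 28% of all genes were called, 13% as rises and 15% as falls. GARS1 (−0.85 ± 0.10), MARS2 (−0.85 ± 0.10), YARS1 (−0.80 ± 0.13), MARS1 (−0.73 ± 0.11) and FARSA (−0.87 ± 0.17) were among the falls. FARSA had 113 to 115.3 CPM with CC-223+Enza and 304, 168 and 157 with Enza, and its change was −0.50 without Enza 1. Without Enza 1 the count was 11, FARSB being then called as well. Calls that ended when 1 library was left out (edgeR adjusted p in brackets) were AARS1 without Enza 1 (0.108), HARS1 without Enza 1 (0.0642), NARS1 without Enza 1 or 2 or CC-223+Enza 1, 2 or 3 (0.0679 to 0.143), SARS1 without Enza 1 (0.0717), WARS1 without Enza 2 or CC-223+Enza 1 or 2 (0.104 to 0.193), AARS2 without Enza 1 or CC-223+Enza 1 or 2 (0.0564 to 0.394), CARS2 without Enza 1 or 2 or CC-223+Enza 1 or 2 (0.0736 to 0.136), EARS2 without Enza 1 or CC-223+Enza 1, 2 or 3 (0.0628 to 0.311), LARS2 without Enza 1 (0.0748) and VARS2 without Enza 1 or CC-223+Enza 1, 2 or 3 (0.0548 to 0.491). For CC-115+Enza against Enza, 2 cytosolic genes rose and 11 fell and 2 mitochondrial genes rose and 8 fell, where 58.7% of all genes were called, 28.5% as rises and 30.2% as falls. RARS2 had 16.4, 30.5 and 25.7 CPM with CC-115+Enza and 9.78, 11.5 and 12.1 with Enza (1.12 ± 0.15). SARS1 had 236, 448 and 422 CPM with CC-115+Enza and 294, 218 and 209 with Enza (0.61 ± 0.15), with library 1 of CC-115+Enza inside the Enza range. MARS2 (−1.09 ± 0.10), FARSA (−1.16 ± 0.17) and NARS1 (−0.92 ± 0.15) were among the falls. Without Enza 1 and CC-115+Enza 1 the changes were 1.02 for SARS1, −0.61 for FARSA, −0.62 for NARS1, −0.88 for MARS2 and 1.25 for RARS2. Library 1 of CC-115+Enza had the lowest TMM-scaled level of its group in all 35 genes. This depends on its TMM factor of 1.30, against 1.01 and 1.05 in libraries 2 and 3. On the total count its cytosolic sum was 4520 CPM, against 5576 and 5510, and some genes, such as VARS1 and AARS2, were not lowest in it. Without this library and Enza 1, 6 cytosolic genes rose and 10 fell and 5 mitochondrial genes rose and 6 fell. Calls that ended when 1 library was left out were AARS1 without Enza 2 or 3 or CC-115+Enza 2 or 3 (0.0504 to 0.197), FARSB without Enza 2 (0.0665), RARS1 without Enza 1, 2 or 3 or CC-115+Enza 1 (0.0738 to 0.308), WARS1 without Enza 2 or 3 or CC-115+Enza 1 (0.146 to 0.302), AARS2 without Enza 1 or CC-115+Enza 1 (0.077 to 0.697), SARS2 without Enza 2 or 3 or CC-115+Enza 2 (0.0612 to 0.133) and VARS2 without Enza 1 or CC-115+Enza 1 (0.0988 to 0.554). No synthetase was called for NU7441+Enza against Enza by edgeR (11 at an unadjusted p under 0.05, 1 by DESeq2), where 0.381% of all genes were called. The count was 7 without Enza 3 (CARS1, FARSA, HARS1, MARS1, VARS1, AARS2 and VARS2, all lower with NU7441+Enza).

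Whether an inhibitor acted differently with enzalutamide was tested as an interaction. By edgeR no synthetase was called for NU7441 (0 at an unadjusted p under 0.05, 0 by DESeq2), for CC-115 (9 and 0) or for CC-223 (0 and 0). Among all genes 0% were called for NU7441, 3.27% for CC-115 (0.993% positive and 2.27% negative) and 0.376% for CC-223. A missed threshold does not show that the effects were the same with and without enzalutamide.

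CC-115 against Control in 22Rv1 asks what the same compound did in another line. Of the cytosolic genes 2 rose and 11 fell, and of the mitochondrial genes 2 rose and 4 fell, where 40.9% of 19392 genes tested were called, 20.2% as rises and 20.7% as falls. The median change was −0.53 for the cytosolic genes and −0.04 for the mitochondrial genes, against −0.02 over all genes. Features shorter than 400 bases took 23.1% and 25.4% of counts in the CC-115 libraries, against 17.8% to 19.1% in Control, and mitochondrial features 0.69% and 0.73%, against 0.39% to 0.55%. With both left out of the scaling, the same numbers of genes were called and the medians were −0.52 and −0.03. EPRS1 (ENSG00000136628), the glutamate and proline enzyme on chromosome 1 at 220141943 to 220220000 in hg19, had 115.2 and 84.6 CPM in the CC-115 libraries and 282, 302 and 285 CPM in the Control libraries (−1.53 ± 0.15, edgeR adjusted p = 0.000369). NARS1 had 60.6 and 42.5 CPM with CC-115 and 136, 145 and 128 in Control (−1.40 ± 0.17). GARS1 had 107 and 88.3 CPM with CC-115 and 258, 239.6 and 231 in Control (−1.32 ± 0.13). In all of these the CC-115 libraries were below every Control library. TARS1 had 57.8 and 44.4 CPM with CC-115 and 122, 126 and 112 in Control (−1.23 ± 0.15). IARS1 (−1.16 ± 0.14), FARSB (−0.94 ± 0.22), WARS1 (−0.92 ± 0.11), LARS1 (−0.87 ± 0.17), RARS1 (−0.77 ± 0.25), HARS1 (−0.53 ± 0.13) and MARS1 (−0.39 ± 0.12) also fell. QARS1, the glutamine enzyme, rose (0.81 ± 0.11), as did SARS1, with 447 and 503 CPM in CC-115 libraries and 280.2, 275 and 281 in Control libraries (0.77 ± 0.10). Of the multisynthetase complex 5 genes fell (EPRS1, IARS1, LARS1, MARS1 and RARS1), QARS1 rose and KARS1 was not called.

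Among the mitochondrial genes in 22Rv1, MARS2 had 43.0 and 42.2 CPM with CC-115 and 96.4, 96.6 and 106 in Control (−1.23 ± 0.12), with no overlap. VARS2 had 109.9 and 143 CPM with CC-115 and 62.8, 63.7 and 75.6 in Control (0.91 ± 0.15), subject to its overlap with GTF2H4. NARS2, the asparagine enzyme, had 17.7 and 13.5 CPM with CC-115 and 24.2, 26.0 and 23.3 in Control (−0.65 ± 0.17). All 3 lay clear of Control. IARS2 had 157 and 124 CPM with CC-115 and 229.8, 216 and 207 in Control (−0.63 ± 0.14). YARS2 (−0.59 ± 0.13) fell and RARS2 (0.56 ± 0.18) rose. With only 2 CC-115 libraries, some calls ended when 1 library was left out (edgeR adjusted p in brackets): FARSB without CC-115 2 (0.0546), HARS1 without Control 1 (0.0567), MARS1 without Control 1, 2 or 3 or CC-115 1 (0.0609 to 0.0998), RARS1 without Control 1 or 2 or CC-115 2 (0.0818 to 0.165), NARS2 without Control 1 or 2 or CC-115 2 (0.0706 to 0.0964), RARS2 without Control 1, 2 or 3 or CC-115 1 (0.0661 to 0.188) and YARS2 without Control 1 (0.0571). Without CC-115 1 the value of RARS2 was 0.34. A fit without a CC-115 library leaves 1, which is then assumed to vary as the Control libraries do.

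**Figure D3:**
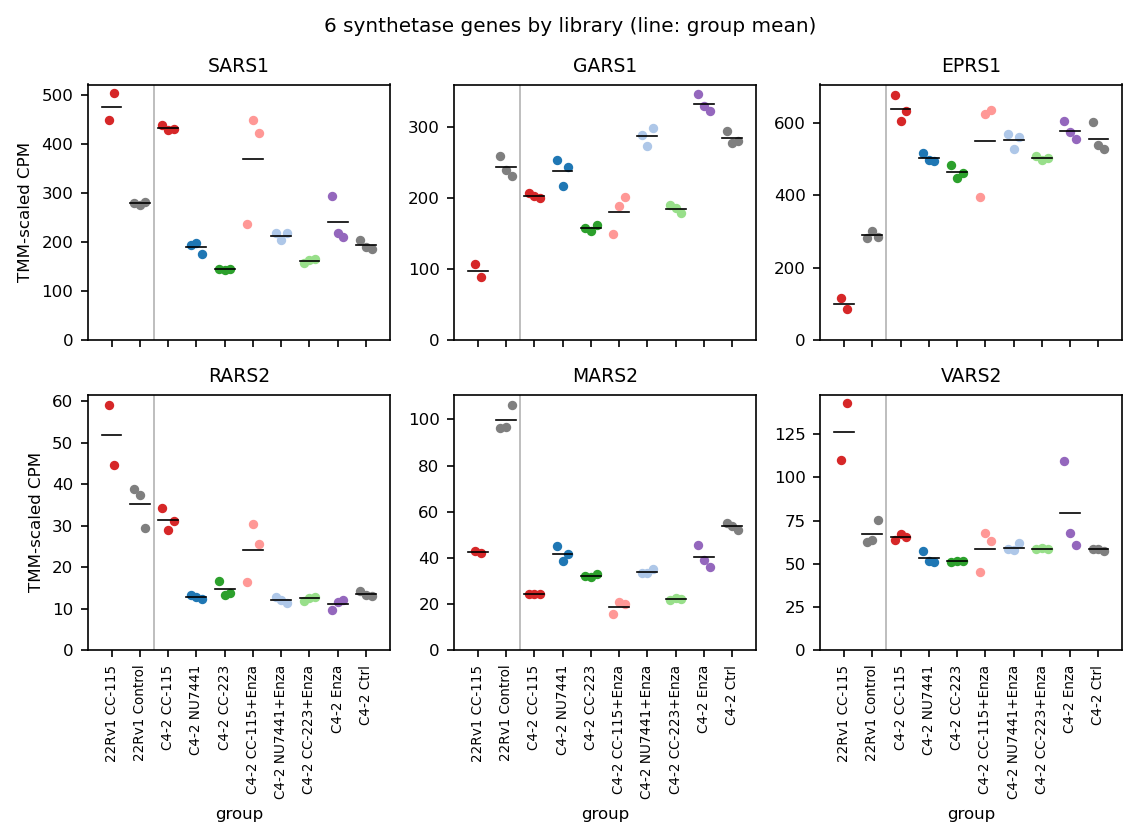
TMM-scaled CPM of 6 synthetase genes by library and group, with a line at each group mean. SARS1 and RARS2 have their highest group means with CC-115 in each line, MARS2 is lower in every treated group than in the untreated cells of its line, and EPRS1 is far lower with CC-115 in 22Rv1 but not in C4-2.

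The effect of CC-115 differed between the lines for 19 synthetases in a joint fit, where 27.5% of 22922 genes were called, 15.2% as higher and 12.3% as lower in 22Rv1. Among the cytosolic genes the effect was lower in 22Rv1 than in C4-2 for 10 and higher for 2, and among the mitochondrial genes it was lower for 1 and higher for 6. The difference was largest in size for EPRS1 (−1.68 ± 0.16, edgeR adjusted p = 1.01e-05), followed by IARS1 (−1.09 ± 0.15), LARS1 (−0.97 ± 0.18), WARS1 (−0.87 ± 0.10) and TARS1 (−0.83 ± 0.16). The effect was higher in 22Rv1 for PARS2 (0.79 ± 0.15), VARS2 (0.79 ± 0.15), QARS1 (0.72 ± 0.10) and FARSA (0.68 ± 0.12). Calls of the difference ended when 1 library was left out for CARS1 without C4-2 Ctrl 1, 2 or 3 or C4-2 CC-115 1, 2 or 3 or 22Rv1 Control 1 or 3 or 22Rv1 CC-115 1 (0.0612 to 0.104), SARS1 without C4-2 Ctrl 2 or C4-2 CC-115 1 (0.0518 to 0.0611), CARS2 without C4-2 Ctrl 1 or 2 or C4-2 CC-115 1, 2 or 3 or 22Rv1 Control 1 or 2 or 22Rv1 CC-115 2 (0.0574 to 0.24), FARS2 without 22Rv1 CC-115 2 (0.0934), LARS2 without C4-2 Ctrl 1 or 2 or C4-2 CC-115 1, 2 or 3 or 22Rv1 Control 2 or 22Rv1 CC-115 2 (0.0543 to 0.115), RARS2 without C4-2 Ctrl 1, 2 or 3 or C4-2 CC-115 1 or 3 or 22Rv1 Control 1 or 2 or 22Rv1 CC-115 2 (0.0549 to 0.121) and TARS2 without C4-2 Ctrl 1 or 2 or C4-2 CC-115 1, 2 or 3 or 22Rv1 Control 1 or 2 or 22Rv1 CC-115 2 (0.058 to 0.229). The value of MARS2 was −0.03 ± 0.11 and not called. The lines came in separate count tables, so a difference between lines and a difference between the experiments behind the tables cannot be told apart.

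**Figure D4:**
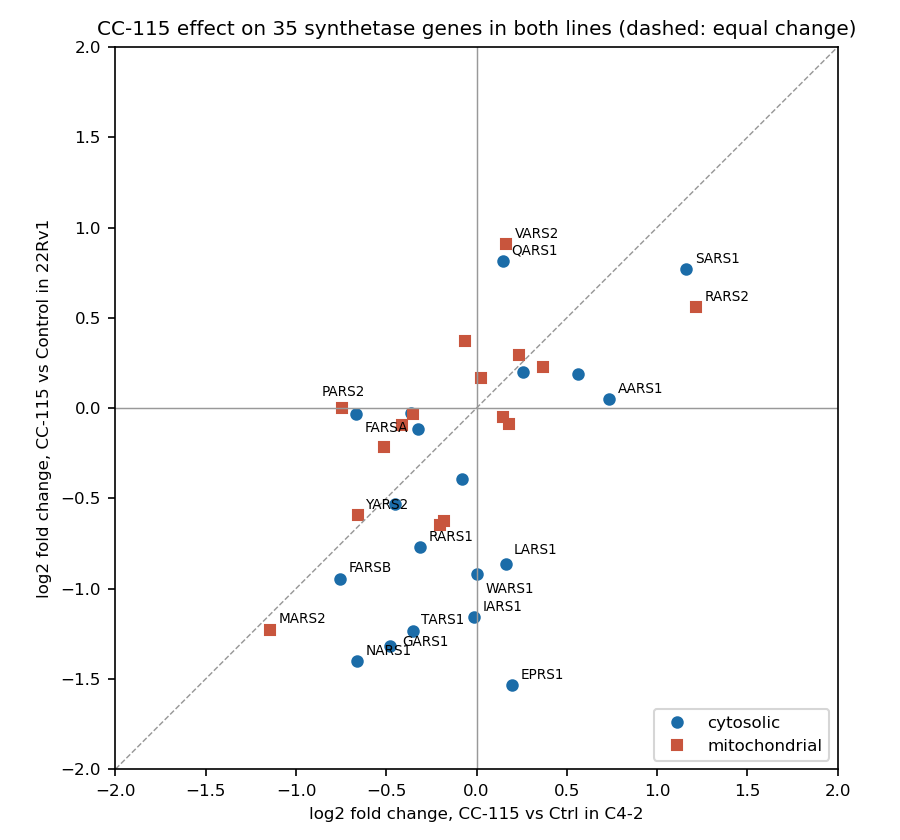
Log2 fold change with CC-115 in 22Rv1 (vertical) against that in C4-2 (horizontal) for the 35 genes, cytosolic as circles and mitochondrial as squares, with a dashed line of equal change. EPRS1, IARS1, LARS1 and WARS1 lie below the dashed line with falls in 22Rv1 and values near 0 in C4-2, while MARS2 lies near it.

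Across CC-115 in C4-2, CC-223 in C4-2 and CC-115 in 22Rv1, 5 genes fell in all 3 comparisons: FARSB, GARS1, NARS1, TARS1 and MARS2. That is 14.3% of the 35, where 6.94% of the 17773 genes tested in all 3 fell in all 3. Some of these calls ended in fits with a library left out, as given above. They were those of TARS1 with CC-115 in C4-2, NARS1 with CC-223 and FARSB with CC-115 in 22Rv1. The C4-2 comparisons share their Ctrl libraries. SARS1 rose with CC-115 in both lines and fell with CC-223, RARS2 rose with CC-115 in both lines and was not called with CC-223, and KARS1, AARS2, EARS2, FARS2, HARS2 and WARS2 were called in none of the 3. The calls of the SARS1 fall with CC-223 and of the RARS2 rise in 22Rv1 also ended in fits with a library left out.

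Genes around the synthetases were taken from lists of the pathway, to be read against the shares of all genes called, which were 23.9% with CC-223 (10.9% falls), 53.6% with CC-115 in C4-2 (26% falls) and 40.9% in 22Rv1 (20.7% falls). ATF4 had 2117, 2047 and 2130.3 CPM with CC-115 and 553, 528 and 485 in Ctrl (2.01 ± 0.18), 1667 and 1972 CPM with CC-115 and 535, 525 and 576 in Control in 22Rv1 (1.74 ± 0.11), and stood at −0.46 ± 0.17 with CC-223, not called. ASNS, asparagine synthetase and a known ATF4 target, fell in all 3 comparisons (−0.40 ± 0.12 for CC-115 and −0.91 ± 0.12 for CC-223 in C4-2, −1.59 ± 0.17 for CC-115 in 22Rv1). Of 25 ATF4 and amino acid genes, none rose and 18 fell with CC-223, with CHAC1 at −2.87, SESN2 at −1.30 and PSAT1 at −1.22 (median −0.69). With CC-115, 6 rose and 7 fell in C4-2 (DDIT3 2.37, PSAT1 −1.50; median 0.18), a share near that of all genes, and 4 rose and 12 fell in 22Rv1 (CHAC1 −2.47, PSAT1 −2.37, the amino acid transporter SLC7A5 −1.80; median −0.17). Of the 4 genes whose promoter windows are shown, AARS1 rose and GARS1 and YARS2 fell with CC-115 in C4-2, where IARS1 stood at −0.01. With CC-223 GARS1 and IARS1 fell, while AARS1 (−0.30) and YARS2 (−0.27) were not called.

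Of 15 partners of tRNA charging, 1 rose and 6 fell with CC-223, 2 rose and 7 fell with CC-115 in C4-2, and 1 rose and 6 fell with CC-115 in 22Rv1. Taken in either direction, the CC-115 shares were near those of all genes (53.6% and 40.9%). By direction they were not, since most calls were falls. All genes had 27.6% rises and 26% falls in C4-2, and 20.2% and 20.7% in 22Rv1. EEF1E1, a scaffold of the multisynthetase complex, fell in each comparison (−0.65 ± 0.22, −1.15 ± 0.23 and −1.35 ± 0.44). The exportin of tRNA XPOT fell with CC-223 (−0.55) and in 22Rv1 (−0.96), and so did the scaffold AIMP1 in 22Rv1 (−1.34). Of 15 mitochondrial translation factors, none rose and 1 fell with CC-223 (TFAM, −0.47), 6 rose and 3 fell with CC-115 in C4-2, and 2 rose and 4 fell in 22Rv1. The CC-115 shares, taken in either direction, were again near those of all genes. MRRF, which recycles mitochondrial ribosomes, rose with CC-115 in both lines (1.17 in C4-2 and 0.98 in 22Rv1). WARS1 is known to be induced by interferon. Of 12 interferon-inducible genes none rose and 10 fell with CC-115 in C4-2 (GBP1 −3.65, OAS1 −3.47, IFIT1 −2.94), where WARS1 was at 0.00, and 2 rose and 2 fell of 8 tested in 22Rv1, where WARS1 fell. With CC-223, none rose and 2 fell (IFIT3 −1.76, GBP1 −0.83). Some of these changes rest on few counts. OAS1 had 15 to 20 counts in the C4-2 Ctrl libraries and 1 to 2 with CC-115, and IFIT1 had 15 to 21 and 1 to 3. IFIT3 had 7 to 10 counts in Ctrl and 1 to 4 with CC-223.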

How the data were processed

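Total RNA was sequenced from 2 prostate cancer cell lines with a stranded total RNA kit, per the labels. The deposited values are raw read counts per gene, made by the authors with STAR 2.5.2a and featureCounts 1.5.0-p3 on hg19, per the submitters' processing notes. The sources used here give neither the annotation release nor the strand setting. Counts were tested with edgeR 4.0.16 in R 4.3.3: filterByExpr, TMM scaling, a robust quasi-likelihood F-test with 1 coefficient per group, and Benjamini-Hochberg adjustment over all genes. All 24 C4-2 libraries shared a fit, the 5 libraries of 22Rv1 had their own, and the difference between lines came from a joint fit of the 4 groups concerned. The SE was the log2 fold change divided by the root of F. DESeq2 1.42.0 was an alternative, beside other scalings, filters, a replicate block, fits of the compared groups alone and fits with libraries left out. Code was tested on simulated data.

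The genes, lists and alternatives were chosen with earlier results of these data known. Any of the 35 genes could be named, and values per library were given for the 4 called genes of each compartment with the largest absolute change in CC-223 or CC-115 against untreated cells. ATF4 and ASNS were named whatever their values, and from each other list up to 3 called genes with the largest changes. Genes beyond that, such as SARS1 in other comparisons, were named after their values were seen. Promoter windows came from RefSeq (GRCh38.p14).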

Additional observations from a re-analysis of the deposited data

Results flagged for a closer look

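For 19 synthetases the effect of CC-115 differed between the lines by the test of the difference itself (edgeR, adjusted over all genes), given as the log2 effect in 22Rv1 minus that in C4-2. Among the cytosolic genes it was lower in 22Rv1 for EPRS1 (−1.68), IARS1 (−1.09), LARS1 (−0.97), WARS1 (−0.87), TARS1 (−0.83), GARS1 (−0.78), NARS1 (−0.68), AARS1 (−0.64), SARS1 (−0.34) and CARS1 (−0.32), and higher for QARS1 (0.72) and FARSA (0.68). Among the mitochondrial genes it was lower for RARS2 (−0.61) and higher for PARS2 (0.79), VARS2 (0.79), FARS2 (0.49), CARS2 (0.37), TARS2 (0.37) and LARS2 (0.35). The calls of SARS1 and RARS2 concern the size of a rise found in both lines. In 22Rv1 the call of the RARS2 rise itself ended in several fits with a library left out. The calls of the difference for CARS1, SARS1, CARS2, FARS2, LARS2, RARS2 and TARS2 also ended in some such fits, as given above. Line and experiment cannot be told apart here.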

How the results depend on the processing

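Counts of called synthetases moved most with the libraries in the fit. The shares of all genes called in the other fits are not given here. Those given above belong to the main fits and are no background to the counts below. In fits of only the compared groups, NU7441 gave 11 calls, CC-223 27 and Enza 0 against Ctrl, CC-115+Enza 10 and CC-223+Enza 11 against Enza, CC-115 against CC-223 28, CC-115 against NU7441 28 and NU7441 against CC-223 14. Without Enza 1 and CC-115+Enza 1 together the counts were 17 for NU7441, 30 for CC-115, 22 for CC-223 and 12 for Enza against Ctrl, 1 for NU7441+Enza against Enza, and 28, 29 and 14 for the pairs CC-115 and CC-223, CC-115 and NU7441, and NU7441 and CC-223. In that setting 5 values of CC-115+Enza against Enza turned from negative to positive: EPRS1 (0.16), YARS1 (0.19), EARS2 (0.31), HARS2 (0.21) and VARS2 (0.023). A filter of 1 CPM gave 4 calls for NU7441, 20 for CC-223, 10 for Enza, 9 for NU7441 against CC-223 and 1 for the interaction of CC-115 with Enza, and no filter gave 0 for NU7441 and 2 for NU7441+Enza against Enza. DESeq2 gave 1 for NU7441+Enza against Enza. The cause was not tested. Leaving out 1 library gave 0 to 2 calls for NU7441, 15 to 20 for CC-115, 9 to 16 for CC-223 and 2 to 9 for Enza against Ctrl, 0 to 7 for NU7441+Enza, 18 to 24 for CC-115+Enza and 11 to 22 for CC-223+Enza against Enza, 13 to 15 for CC-115 against CC-223, 11 to 13 for CC-115 against NU7441, 4 to 5 for NU7441 against CC-223, 0 to 0, 0 to 1 and 0 to 0 for the interactions of NU7441, CC-115 and CC-223, 13 to 18 in 22Rv1 and 13 to 23 for the difference between lines. Same-numbered C4-2 libraries deviated together with correlations of −0.19 to 0.13, and 22Rv1 libraries with 0.30 and −0.36, so the pairing by number rests on the number alone. With the replicate number as a block, counts were 0 for NU7441, 17 for CC-115, 11 for CC-223, 4 for Enza and 17 in 22Rv1. The median mitochondrial change in 22Rv1 lay between −0.11 and 0.05 over the alternatives, the cytosolic one between −0.59 and −0.47. With DESeq2, 510 of 525 values (35 genes in 15 comparisons) kept their direction and side of the threshold, and 520 with small and mitochondrial RNA removed. Every synthetase had at least 142 counts in each library.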
